A study of Mus musculus with 4 samples.

Results

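The 10 genes described here are the growth hormone receptor gene Ghr, the kinase gene Jak2, the transcription factor genes Stat5a and Stat5b, the feedback inhibitor genes Cish, Socs1, Socs2 and Socs3, and the growth hormone responsive factors Bcl6 and Onecut1. They were taken by symbol from count files of 37315 Ensembl genes, and 9 of the 10 were among the 14657 genes with enough counts to be tested. The list was drawn up with the difference between the groups already known, so the differences below describe these genes and support nothing about the pathway. Liver RNA was sequenced from C57BL/6 mice aged 23 weeks, with 2 libraries from wild type animals and 2 from animals with a synonymous Foxo1 mutation, a change of the coding sequence that leaves the protein sequence as it is. Not given in the sources used here are the base exchanged, the feeding state, the time of day and whether each library came from a separate animal, so p-values measure the spread between these libraries, which may be technical.

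Growth hormone binds its receptor on hepatocytes, the receptor-bound kinase JAK2 phosphorylates STAT5, and STAT5 enters the nucleus and activates genes such as Igf1. CIS (from Cish) and the SOCS proteins are induced by the same signal and damp it, and SOCS3 is also induced by interleukin 6 through STAT3. In rodent liver the pituitary releases growth hormone in pulses in males and more steadily in females, and STAT5b sets much of the resulting sex difference in liver gene expression. Bcl6, a transcriptional repressor, is lowered by growth hormone in liver, and Onecut1, which encodes the hepatocyte factor HNF6, is raised by it.

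Total counts ranged from 73551737 to 95908652 per library, and 3 counts, the limit used here for a gene not detected, stood for 0.0315 to 0.0415 CPM (counts scaled to a library total of 1000000). Wild type replicate 2 stood apart, with a chi-square per gene of 101 against each mutant library, whereas that of wild type replicate 1 was 58.8 and 61.0 against the mutant libraries and 70.9 against wild type replicate 2. Hepatocyte markers were abundant, with all 10 detected in all 4 libraries and a summed level of at least 104468 CPM. The Y-linked gene Ddx3y was at 46.9 to 56.6 CPM and Xist at 0.0359 to 0.294 CPM. Foxo1 itself was at 44.0 and 54.8 CPM in wild type against 33.6 and 53.4 CPM in mutant liver, so the groups overlapped. Levels below are CPM after TMM scaling, with the SD over the 2 libraries of a group. A positive log2 fold change means a higher level in the mutant.

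STAT5 binds the palindrome TTCNNNGAA, where N is any base, and the promoter windows of the members were searched for it. The stretches of Cish, Socs3 and Bcl6 are shown because these are the members with a match. The RefSeq windows (build GRCm38.p6) run from 250 bases before to 50 bases after an annotated start. Of the 10 members 9 had a window, and Socs2 had none. Of 32851 windows of all genes 8.30% held at least 1 match, 0.457% at least 2 and 0.0335% at least 3. Of the 13 windows of the members 4 held a match, belonging to Cish, Socs3 and Bcl6. The Cish stretch is chr9:107296654-107296683 (plus strand), at the RefSeq start, and its matches lie inside an exon of 1 of 5 GENCODE transcripts. The Socs3 stretch is chr11:117969367-117969616 (minus strand), the 250 bases before the RefSeq start. Its match lies within an intron of 1 of 3 GENCODE transcripts. The first Bcl6 stretch is chr16:23988952-23988981 and the second is chr16:23981284-23981533 (both minus strand), the 250 bases before an alternative start within an intron of 1 of 2 GENCODE transcripts. Capitals mark the matches, and a match on one strand is a match on the other because the motif is a palindrome.
Cish: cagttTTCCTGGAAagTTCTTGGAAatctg
Socs3: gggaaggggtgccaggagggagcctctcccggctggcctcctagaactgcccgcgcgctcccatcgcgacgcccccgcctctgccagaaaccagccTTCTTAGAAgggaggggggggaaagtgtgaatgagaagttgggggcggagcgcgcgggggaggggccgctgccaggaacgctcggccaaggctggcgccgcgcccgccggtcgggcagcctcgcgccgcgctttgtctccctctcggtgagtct
Bcl6 main start: tagcaaattagTTCTCAGAAttccagaggc
Bcl6 alternative start: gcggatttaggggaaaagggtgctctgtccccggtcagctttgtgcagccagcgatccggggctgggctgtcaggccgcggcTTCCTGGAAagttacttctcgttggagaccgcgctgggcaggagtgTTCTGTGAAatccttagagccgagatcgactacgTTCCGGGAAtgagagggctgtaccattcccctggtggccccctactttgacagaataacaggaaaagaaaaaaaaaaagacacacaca
The Cish window held 2 matches 11 bases apart from first base to first base, and the alternative Bcl6 window held 3, at −168, −122 and −88 from the start. The windows of Onecut1, Ghr, Jak2, Stat5a, Stat5b and Socs1 held no such letters. A match is a description of the sequence and not a measured binding site.

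The receptor and the kinase differed little between the groups. Ghr (ENSMUSG00000055737, mm10 chromosome 15, 3317760 to 3583492, minus strand) was at 568 and 637 CPM in wild type against 623 and 604 CPM in mutant liver. Its groups overlapped, with means of 603 ± 48.5 and 614 ± 13.7 CPM (SD, n = 2 each). The log2 fold change was 0.03, with a 95% confidence interval of −0.20 to 0.26. Jak2 (ENSMUSG00000024789, chromosome 19, 29251828 to 29313080, plus strand) was at 18.2 and 19.7 CPM in wild type against 20.8 and 20.5 CPM in mutant liver, and both mutant libraries were above both wild type libraries. The edgeR adjusted p of Jak2 was 0.995, and the interval of its log2 fold change (0.13) ran from −0.10 to 0.35.

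Both STAT5 genes, neighbours on chromosome 11, were lower in both mutant libraries than in both wild type libraries, and neither passed the test. Stat5a (ENSMUSG00000004043, 100859351 to 100885169, plus strand) was at 13.5 and 11.8 CPM in wild type against 9.48 and 10.4 CPM in mutant liver. The change of Stat5a on the log2 scale was −0.35 (SE 0.13, 95% confidence interval −0.63 to −0.08, edgeR adjusted p = 0.579). Stat5b (ENSMUSG00000020919, 100780731 to 100850724, minus strand), the STAT5 form that carries most of the growth hormone response of liver, was at 56.5 and 61.8 CPM in wild type against 54.2 and 52.2 CPM in mutant liver. The log2 fold change of Stat5b was −0.15 (interval −0.35 to 0.04, edgeR adjusted p = 0.946). Per kilobase of exon, Stat5b exceeded Stat5a 5.38-fold and 6.73-fold in the wild type and 7.36-fold and 6.48-fold in the mutant libraries, so this ratio overlapped between the groups. The 2 genes are close paralogs and Stat5a shares 72 exon bases with the opposite-strand gene Stat3, and a library kit without strand marks cannot separate reads in those bases.

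Cish, the feedback inhibitor most directly tied to STAT5, rose 2.91-fold in mutant liver. The gene (ENSMUSG00000032578, chromosome 9, 107296026 to 107302784, plus strand) had 159 and 131 reads in wild type and 613 and 368 reads in mutant libraries. These were 1.92 and 1.81 CPM against 6.44 and 4.40 CPM, so the wild type libraries lay close together and both mutant libraries lay well above them. Group means were 1.86 ± 0.0737 and 5.42 ± 1.44 CPM (SD, n = 2 each), and the log2 fold change was 1.54 (SE 0.22, 95% confidence interval 1.06 to 2.02, edgeR adjusted p = 0.0109). The call was kept without mutant replicate 2 (edgeR adjusted p = 0.0494) and lost without wild type replicate 1 (0.152), wild type replicate 2 (0.165) or mutant replicate 1 (0.191), while the log2 fold change stayed between 1.24 and 1.78. It was also lost in limma-voom (adjusted p = 0.122) and in edgeR without robust estimation (0.0586). Its exons share 261 and 479 bases with the opposite-strand genes Gm17040 and Gm17041, which had at most 10 and 0 reads in a library.

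Socs3 was higher in both mutant libraries without passing the test. The gene (ENSMUSG00000053113, chromosome 11, 117966079 to 117970047, minus strand) was at 3.27 and 2.17 CPM in wild type against 5.30 and 4.71 CPM in mutant liver, a ratio of means of 1.84. The log2 fold change was 0.88 (SE 0.21, 95% confidence interval 0.41 to 1.34, edgeR adjusted p = 0.181), and it was 1.21 without wild type replicate 1 and 0.62 without wild type replicate 2.

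Socs2, whose product limits growth hormone signalling and whose loss makes mice grow large, differed between the libraries of a group rather than between groups. It was at 6.52 and 2.46 CPM in wild type against 7.03 and 3.24 CPM in mutant liver (ENSMUSG00000020027, chromosome 10, 95385362 to 95417180, minus strand). In each group the library numbered 1 was above the library numbered 2, by 2.65-fold and 2.17-fold, and the groups overlapped. The log2 fold change of 0.19 had a 95% confidence interval of −2.72 to 3.10, so a change of Socs2 as large as that of Cish was not detectable here. It turned to −0.34 without wild type replicate 2 and to −0.48 without mutant replicate 1, and was 1.06 without wild type replicate 1. Socs1 (ENSMUSG00000038037, chromosome 16, 10782240 to 10785536, minus strand), an inhibitor best known from interferon signalling, had 2 and 5 reads in wild type and 1 and 12 reads in mutant libraries. It was too low to be tested, and wild type replicate 1 and mutant replicate 1 were below the limit of 3 counts.

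**Figure D1:**
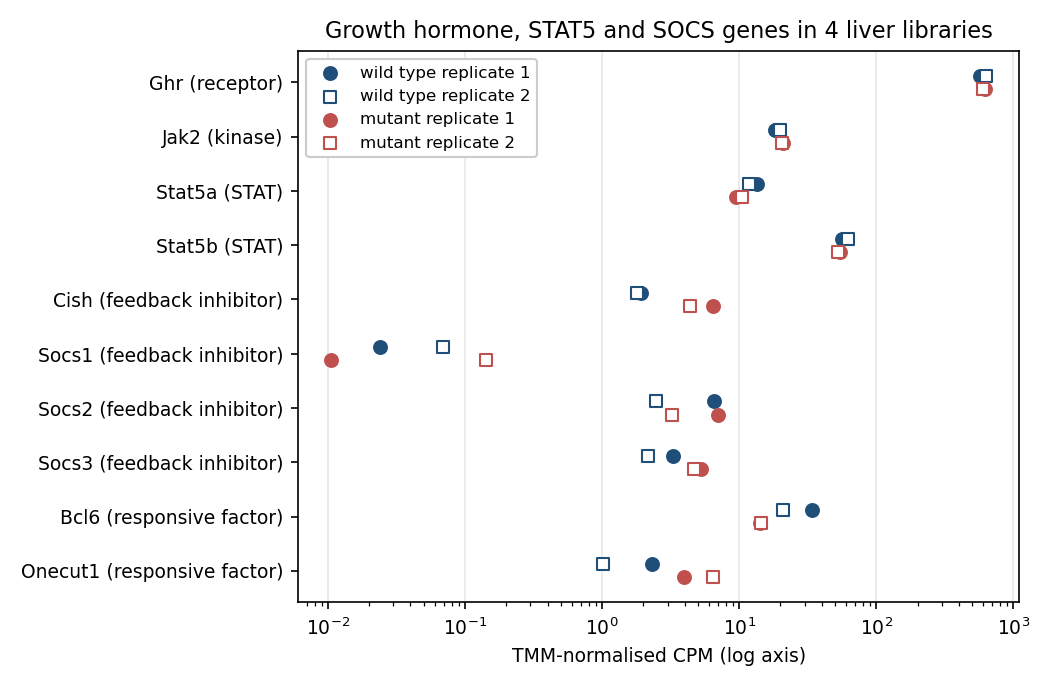
Level of each of the 10 members in each library, as TMM-normalised CPM on a log axis, with circles for replicate 1 and squares for replicate 2, blue for wild type and red for mutant. Cish sits at 1.81 and 1.92 CPM in wild type and at 4.40 and 6.44 CPM in mutant liver, whereas for Socs2 both circles sit right of both squares.

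The 2 responsive factors stood in opposite directions. Bcl6 (ENSMUSG00000022508, chromosome 16, 23965052 to 23988852, minus strand) was at 34.0 and 21.0 CPM in wild type against 14.1 and 14.4 CPM in mutant liver. The mutant libraries were nearly equal and both below the wild type libraries, which differed 1.62-fold from each other, and the wild type mean was 1.93-fold higher. Its log2 fold change of −0.95 (SE 0.25, 95% confidence interval −1.63 to −0.27) did not pass the edgeR test (adjusted p = 0.584), but passed in DESeq2 (adjusted p = 0.000435). It was −1.26 without wild type replicate 2 and −0.56 without wild type replicate 1, and each of these fits leaves 1 wild type library.

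Onecut1 (ENSMUSG00000043013, chromosome 9, 74861921 to 74891781, plus strand) was at 2.33 and 1.02 CPM in wild type against 3.96 and 6.45 CPM in mutant liver. All 4 libraries differed, with both mutant libraries above both wild type libraries and a ratio of means of 3.11. The log2 fold change of 1.62 was the largest in size among the tested members (SE 0.48, 95% confidence interval 0.34 to 2.91), and did not pass the edgeR test (adjusted p = 0.663) although it passed in DESeq2 (adjusted p = 0.0011). It ranged from 1.16 without wild type replicate 2 to 2.34 without wild type replicate 1. Of its 4113 exon bases 2171 are shared with the same-strand gene Gm20649, which had 0 reads in every library. How reads in shared bases were counted is not given in the sources used here.

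**Figure D2:**
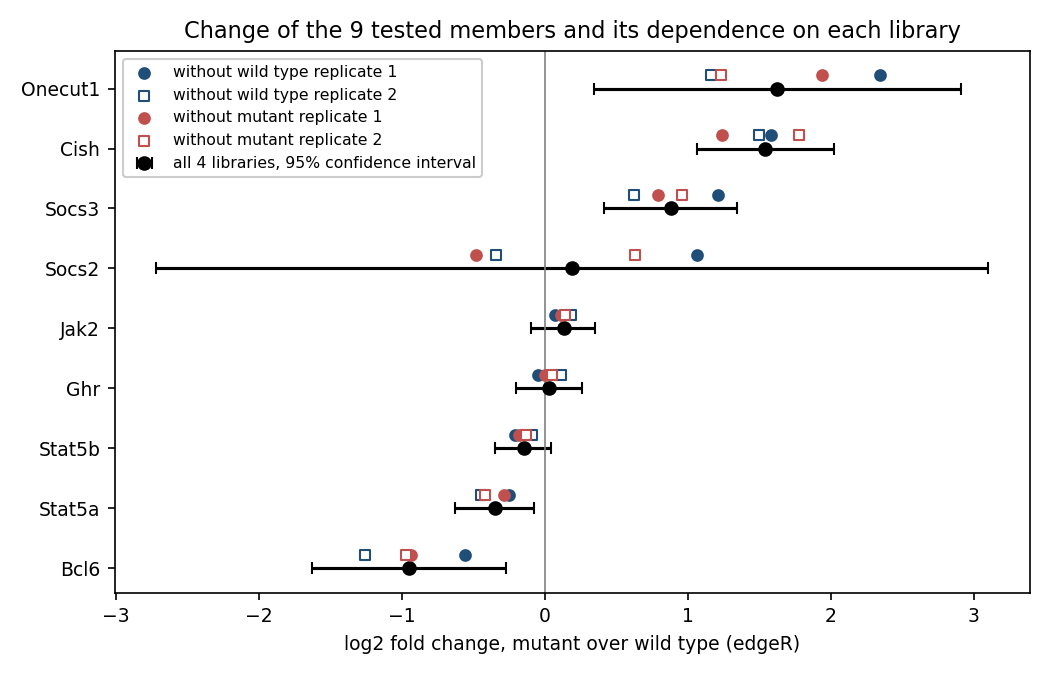
Log2 fold change of the 9 tested members, mutant over wild type, from edgeR (black points, bars are 95% confidence intervals), with the value after leaving out each library (coloured points). Cish stays between 1.24 and 1.78 and Bcl6 between −1.26 and −0.56, whereas Socs2 lies on both sides of 0.

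Of the 9 tested members 1 passed at an edgeR adjusted p below 0.05, where 0.341% of the 14657 genes tested did. That member, Cish, was higher in the mutant, as were 0.28% of all genes, and 0 members were called lower, against 0.0614% of all genes. DESeq2 called 3 (Cish, Bcl6 and Onecut1, against 0.811% of the genes it gave an adjusted p) and limma-voom 0 (0.0478%). An unadjusted p below 0.05 was found for 5 members, against 6.19% of all genes. In 7 members the groups did not overlap, against 34.1% of all genes tested. The members were chosen on this same comparison, so nothing is read from these shares.

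Levels per kilobase of exon spanned more than 3 orders of magnitude, a span that rests on Socs1, which was too low to be tested. The wild type means of the 9 tested members ran from 66.6 to 0.291 CPM per kilobase. In wild type liver Ghr was highest, at a mean of 66.6 CPM per kilobase, followed by Stat5b (10.7), Bcl6 (4.10), Jak2 (3.76), Stat5a (1.78), Socs3 (0.941), Socs2 (0.471), Onecut1 (0.407), Cish (0.291) and Socs1 (0.0160). Neighbours in this order whose libraries overlapped were Bcl6 and Jak2, Socs2 and Onecut1, and Onecut1 and Cish, and their levels did not differ beyond their spread. In mutant liver Bcl6 (2.12) stood below Jak2 (4.11), and Cish (0.844) and Onecut1 (1.27) stood above Socs2 (0.539) by their means, with libraries of Cish overlapping those of Onecut1 and of Socs2. The ratio of Cish to Socs2 per kilobase within a library, which does not depend on how libraries are scaled, was 0.436 and 1.09 in wild type and 1.36 and 2.02 in mutant liver, and that of Socs3 to Cish was 3.78 and 2.66 against 1.83 and 2.38.

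Other parts of the cytokine receptor pathway, 30 genes for receptors, kinases, STATs, adaptors, phosphatases and further SOCS proteins, gave 0 calls in edgeR, DESeq2 and limma-voom and 1 gene at an unadjusted p below 0.05. Their median log2 fold change was 0.05 and their range −0.22 to 0.82, beside a median of −0.001 over all genes tested. The members of highest level were Lifr, a receptor of the interleukin 6 family, at 187 ± 62.5 CPM in wild type against 212 ± 7.89 CPM in mutant liver, and the kinase gene Jak1 at 114 ± 0.302 and 118 ± 1.78 CPM. The gene with the unadjusted call was the leptin receptor gene Lepr, named after its values were seen, at 0.747 and 0.692 CPM in wild type against 1.10 and 1.45 CPM in mutant liver (0.82 on the log2 scale, edgeR adjusted p = 0.668).

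Hepatic outputs of growth hormone were grouped in 3 lists, with each gene tested by itself and no test of a list as a whole. Of the IGF axis, Igf1 was at 502 and 375 CPM in wild type against 498 and 472 CPM in mutant liver, and Igfals, whose product stabilises circulating IGF1, at 84.1 and 44.6 CPM and 81.7 and 53.8 CPM. The groups of both overlapped, and 0 of the 3 genes (Igfbp3 is the third) passed in edgeR, DESeq2 or limma-voom or had an unadjusted p below 0.05. Of 14 genes known to be higher in male mouse liver, 10 had values above 0 and 4 below, and their median log2 fold change was 0.10. None passed in edgeR, DESeq2 or limma-voom (0 calls each, 1 at an unadjusted p below 0.05). Its most abundant members were Mup20, a major urinary protein with close paralogs, at 6514 ± 740.0 and 7067 ± 722 CPM, and the glutathione transferase gene Gstp1 at 2056 ± 313 and 2095 ± 254 CPM. Of 20 genes known to be higher in female liver, 10 were too low to be tested, and the other 10 gave 0 calls in the same tests and 2 at an unadjusted p below 0.05, with a median of 0.24. Among them Trim24, a transcriptional cofactor, was at 20.2 ± 1.57 and 17.5 ± 0.106 CPM, and Cyp17a1, a steroid hydroxylase gene, at 10.8 ± 3.14 and 18.9 ± 14.5 CPM.

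The targets of interleukin 6 and STAT3, the other known inducer of Socs3, had log2 fold changes above 0 in 13 of 13 genes, against 7283 of the 14657 genes tested, with a median of 0.28. Several were near 0, such as Fga (0.02), Fgg (0.05), Fgb (0.07) and Pim1 (0.07). In edgeR 0 passed (0.341% of all genes did), in DESeq2 2 (0.811%) and in limma-voom 1 (0.0478%), and 4 had an unadjusted p below 0.05 (6.19%). The fibrinogen genes Fga and Fgb, the most abundant, were at 4777 ± 198 and 4337 ± 270.0 CPM in wild type against 4828 ± 306 and 4547 ± 231 CPM in mutant liver. The serum amyloid genes Saa1 and Saa2, named after their values were seen, differed most. Saa1 was at 51.2 and 85.2 CPM in wild type against 183 and 235 CPM in mutant liver, and Saa2 at 9.95 and 20.3 CPM and 73.9 and 114 CPM. They are near-identical copies, so the split of reads between them is uncertain, and their edgeR adjusted p were 0.624 and 0.754. These 2 genes were the calls of DESeq2 (adjusted p = 0.00882 for Saa1 and 0.00232 for Saa2), and Saa2 was that of limma-voom (adjusted p = 0.0276).

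Macrophage markers, like Cish and Socs3, were higher in both mutant libraries than in both wild type libraries. Within the mutant group Cish and Socs3 were higher in replicate 1, and the summed macrophage markers were higher in replicate 2. The 12 markers summed to 342 and 363 CPM in wild type against 517 and 597 CPM in mutant liver, and 12 of 12 were higher in both mutant libraries, where the groups of 34.1% of all genes did not overlap in either direction. Of the 12, 6 rose past the edgeR threshold (Clec4f, Cd5l, Timd4, Csf1r, C1qb and Lyz2, named after their values were seen), against 0.28% of all genes. Lyz2, the lysozyme gene of macrophages, was at 49.8 and 51.4 CPM in wild type against 81.6 and 90.4 CPM in the mutant libraries (adjusted p = 0.0051 in edgeR). Lymphocyte markers summed to 8.25 and 8.87 CPM against 14.7 and 13.0 CPM, with 4 of 9 higher in both mutant libraries. Most of that sum was Ptprc, which all leukocytes including macrophages express, at 6.55 and 6.05 CPM against 11.4 and 10.1 CPM (edgeR adjusted p = 0.0405), and the groups of the markers Cd79a, Cd79b and Ms4a1 overlapped. Neutrophil markers summed to 0.446 and 0.636 CPM against 1.5 and 0.885 CPM, with 3 of 7 higher in both mutant libraries. S100a8 had 7 and 12 reads in wild type against 42 and 24 in mutant libraries, and S100a9 had 26 and 21 against 87 and 46. Neither passed in edgeR (adjusted p = 0.737 and 0.614). Retnlg, too low to be tested, had 4 and 11 reads in wild type against 6 and 1 in mutant libraries. Its ratio of means was 0.374, and its groups overlapped. The markers Ly6g, Mpo, Elane and Camp were at 0 in at least 1 library. Sinusoidal endothelial markers summed to 168 and 179 CPM against 176 and 172 CPM, with 1 of 7 higher and 1 lower in both mutant libraries. Cholangiocyte markers summed to 35.6 and 32.2 CPM against 33.8 and 31.1 CPM, with 0 of 5 higher and 1 lower in both. Stellate cell markers summed to 233 and 275 CPM against 255 and 248 CPM. Of these 7 markers Acta2 was higher in both mutant libraries, at 0.422 and 0.706 CPM against 1.16 and 1.31 CPM. Reln, Col1a1 and Col3a1 were lower in both, and 0 of the 7 passed in edgeR. Erythroid markers summed to 238 and 266 CPM in wild type against 295 and 334 CPM in mutant liver, and 4 of 5, the globin genes, were higher in both mutant libraries. Hbb-bt passed the edgeR test (1.74-fold, adjusted p = 0.0146), the ratios of means of the other globin genes were 1.29 to 1.5, and Alas2 overlapped, at 143 and 125 CPM against 132 and 150.0 CPM. Hepatocyte markers summed to 109184 and 122457 CPM in wild type against 107371 and 104468 CPM in mutant liver, so both mutant sums were below both wild type sums. Most of that sum was Alb, at 71491 and 80682 CPM against 67920 and 64771 CPM. Of the 10 hepatocyte markers 2 were lower and 1 was higher in both mutant libraries, and their median log2 fold change was −0.02. The part of these cells in the levels of Cish and Socs3 was not tested. In whole tissue a different number of cells of a type and a different amount of RNA per cell cannot be told apart.

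**Figure D3:**
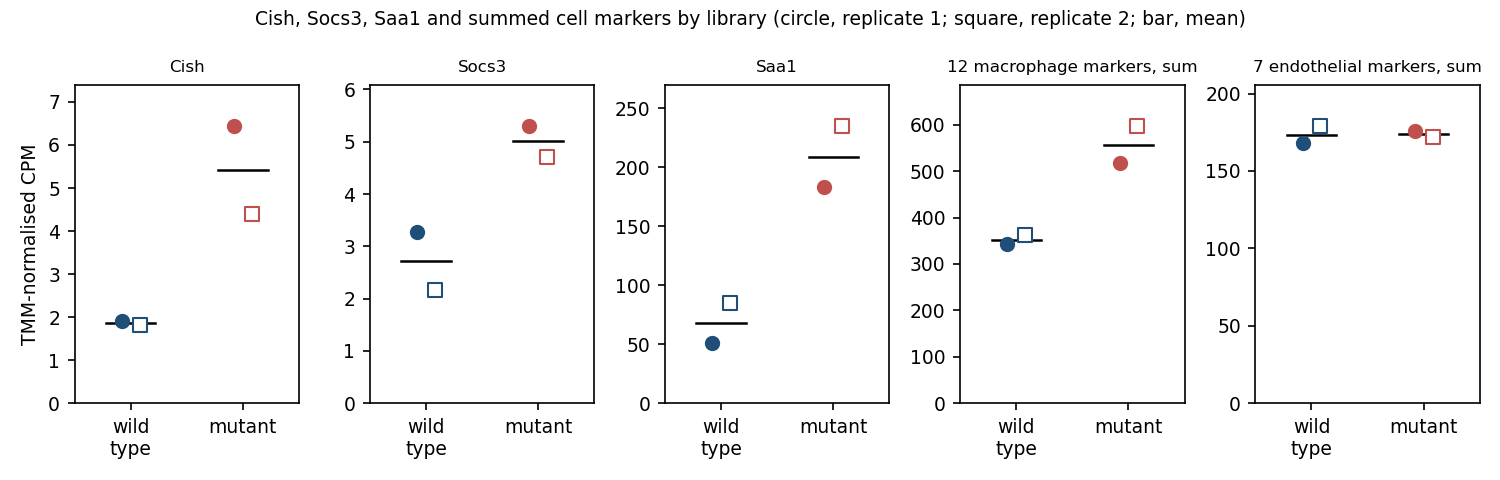
TMM-normalised CPM of Cish, Socs3 and Saa1 and summed CPM of macrophage and endothelial markers in each library, each axis starting at 0, with circles for replicate 1, squares for replicate 2 and bars for the group mean (n = 2). The macrophage sum is 342 and 363 CPM in wild type against 517 and 597 CPM in mutant liver, and the endothelial sums overlap.

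The direction of the split of Socs2 by replicate number was shared by most male-biased genes, a pattern described after the values were seen. Of the 9 tested members 3 (Socs2, Socs3 and Cish) were higher in the library numbered 1 than in that numbered 2 in both groups, and 0 showed the opposite. For Cish the difference in wild type was only 1.06-fold. Among all genes tested 23.5% were higher in the library numbered 1 in both groups and 24.8% in the library numbered 2. Of the 14 male-biased genes 12 were higher in the library numbered 1 in both groups and 1, Gstp1, was lower in both. The size was smaller, with a median log2 ratio over the 14 of 0.32 in wild type and 0.24 in mutant liver, against 1.40 and 1.12 for Socs2. Of the 10 tested female-biased genes 4 were higher in the library numbered 1 and 3 in the library numbered 2 in both groups. Igfals differed between the 2 libraries by 0.92 in wild type and 0.60 in mutant liver on the log2 scale, and Cyp7b1, an oxysterol hydroxylase gene, by 0.74 and 0.60. Onecut1 did not share this, with differences of 1.18 in wild type and −0.70 in mutant liver, and for Bcl6 they were 0.70 and −0.03. Within each group the library numbered 1 also had the larger total count, and the labels do not say that a number marks a shared litter, day or batch.

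**Figure D4:**
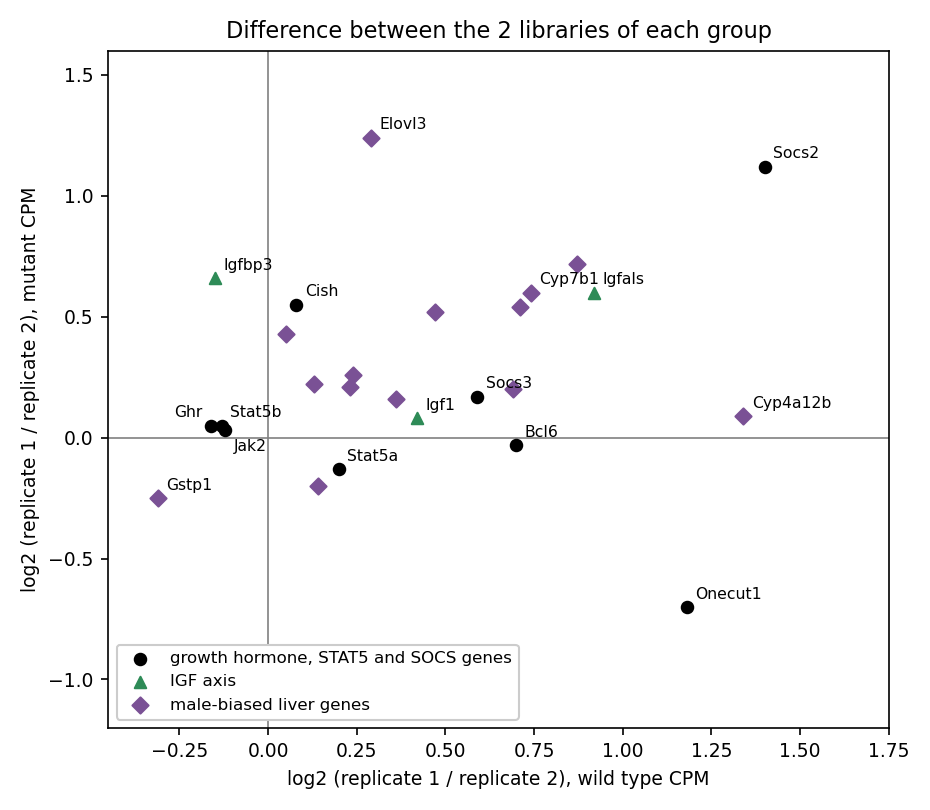
Log2 ratio of replicate 1 to replicate 2 in wild type (horizontal axis) and in mutant liver (vertical axis) for the 9 tested members, the 3 IGF axis genes and 14 male-biased genes, from TMM-normalised CPM. Points in the upper right quadrant are higher in replicate 1 in both groups, and Socs2 lies at 1.40 and 1.12.

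The genes whose pattern over the 4 libraries was most like that of Onecut1 were sought among 8922 other genes with a mean of at least 4 CPM, by the Euclidean distance between log2 CPM values centred on each gene's mean. The nearest were Mup9 (distance 0.605), Mup16 (0.677), Moxd1 (0.707), Tspyl4 (0.782) and Plk3 (0.873). Mup9 was at 352 and 171 CPM in wild type against 725 and 660.0 CPM in mutant liver, and Mup16 at 468 and 365 CPM and 859 and 1153 CPM. Reads of these major urinary protein genes can fall on other copies of the family, so their levels are uncertain. Moxd1, a monooxygenase-like gene, was at 101 and 37.2 CPM in wild type against 176 and 154 CPM in mutant liver. Tspyl4 was at 4.68 and 3.42 CPM and 7.87 and 9.53 CPM, and the polo-like kinase gene Plk3 at 22.8 and 16.1 CPM and 29.3 and 43.3 CPM. In all 5 both mutant libraries were above both wild type libraries, which follows from the choice by likeness to Onecut1.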

How the data were processed

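PolyA RNA of mouse liver was made into libraries with a TruSeq RNA kit that does not mark strand and sequenced in paired mode, per the labels' protocols. Each deposited file holds the raw counts of 1 library by Ensembl gene identifier, and TopHat2 2.1.1, HTSeq 0.6.0 and mm10 are named in the submitters' processing notes. Not given in the sources used here are the annotation release, the counting mode and the strand setting. Symbols were found for 95.0% of 37315 identifiers, and coordinates, exon lengths and overlaps come from GENCODE M21 of the matching build. No row lacked a gene identifier.

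Genes kept by filterByExpr (minimum count 10) were scaled by TMM and tested with glmQLFit and glmQLFTest of edgeR 4.0.16 in R 4.3.3 with robust estimation, the group as the only term, and Benjamini-Hochberg adjustment over all 14657 genes (threshold 0.05). The SE was taken as the size of the log2 fold change divided by the square root of F. DESeq2 1.42.0, limma-voom (limma 3.58.1), other scalings and filters, the replicate block and each library left out were alternatives. The test was run on simulated data as a check of its log2 fold changes, and no rate of false calls is given here. The simulated counts had the spread fitted for a gene's level, so genes with a larger spread were not represented. Intervals and the limit of 3 counts cover counting and library spread only.

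The members and lists were chosen with earlier results of these data known, and the lists come from general knowledge. The rule for named genes took all members, Foxo1, Igf1, in each other pathway list (not the cell marker lists) up to 4 genes past the threshold or else the 2 of highest level, and the 5 genes most like the member with the largest change. Distances and list values of library ratios used log2 (CPM + 0.1).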

Additional observations from a re-analysis of the deposited data

How the results depend on the processing

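The number of genes past the threshold, 50 in the reported fit, was 258 with no filter, 24 with a filter of 1 CPM in 2 libraries, 112 with DESeq2, 7 with limma-voom, 8 with edgeR without robust estimation and 3 to 17 with 1 library left out. The number of members called, 1 in the reported fit, was 4 with no filter, 3 with DESeq2 and 0 with limma-voom. It was 0 without robust estimation and 5 at an unadjusted p below 0.05 (a setting added after the data were seen). Cish kept its direction in 12 of 12 settings and lost its call in 5, with a log2 fold change of 1.52 in limma-voom, 1.54 without robust estimation and 1.24 to 1.78 with 1 library left out. Ghr turned to −0.05 without wild type replicate 1 (range −0.05 to 0.11), and Socs2 to −0.34 and −0.48 without wild type replicate 2 and mutant replicate 1 (range −0.48 to 1.06). Male-biased genes gave 2 calls with no filter and 0 to 1 with 1 library left out, and interleukin 6 targets gave 2 with DESeq2, 1 with limma-voom, 1 without robust estimation and 0 to 1 with 1 library left out, against 0 for both lists in the reported fit. Per kilobase of the longest transcript in place of all exons, the order of levels in wild type was the same for all 10 members, Stat5b exceeded Stat5a by 3.57-fold and 4.08-fold in wild type and mutant means, and the mutant mean of Cish over Socs2 was 1.03. The cause of these differences was not tested. RLE and upper-quartile scaling each gave 50 genes and 1 member.

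The labels give same-numbered libraries nothing in common but the number. Over the genes tested, the correlation between their deviations from the group means was −0.0072. That value does not show whether a litter, day or batch was shared. With the replicate block 111 genes passed, 2 members (Cish and Socs3), 3 male-biased genes and 2 interleukin 6 targets. Socs1 was not tested, and the interval of Socs2 (−2.72 to 3.10) holds changes as large as that of Cish.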
